A study of Bos taurus with 12 samples.

Results

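Complex I, the NADH:ubiquinone oxidoreductase of the mitochondrial inner membrane, was examined through its nuclear genes in female and male bovine expanded blastocysts. Genes were taken by symbol, as those beginning with NDUFA, NDUFB, NDUFC, NDUFS or NDUFV other than the NDUFAF assembly factors, which gave 39 of the 32637 genes in the table of counts. Of these 39, 37 encode subunits of complex I. The remaining pair, NDUFA4 and NDUFA4L2, carry a complex I symbol but are known as complex IV proteins, and they are described apart at the end. A filter on low counts kept 12802 genes for testing, among them 38 of the 39 and all 37 subunits, and NDUFA4L2 did not pass it.

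RNA-seq was performed on 6 female and 5 male pools of embryos produced in vitro and collected on Days 7 and 8. Each pool combined cut pieces of 2 embryos of the same sex, each piece holding inner cell mass and trophectoderm, while the matching pieces served for PCR sexing. Oocytes were fertilized with semen of a pair of bulls used in weekly rotation. A pool is the replicate here, so p-values measure the spread between pools and a pool can hide differences between its embryos. One Iso-seq sample of mixed-sex embryos at the 4-cell stage was not analysed here.

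Complex I takes electrons from NADH in the mitochondrial matrix, passes them along a chain of iron-sulfur clusters to ubiquinone, and uses the energy released to pump protons. Its matrix arm holds the cofactors and its membrane arm the proton channels, and the core subunits of the membrane arm are encoded by mitochondrial DNA, whereas the core subunits of the matrix arm and every accessory subunit are nuclear. Accessory subunits surround the core and are needed for assembly and stability. In early embryos, oxidative phosphorylation becomes a growing source of ATP as the blastocoel forms and expands.

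Counted reads per library ranged from 6664112 in female 4 to 21392764 in male 5. Levels are given as CPM, each gene's reads per 1000000 reads of the library's TMM-adjusted total, and they were compared between libraries for the same gene and not between genes, since no exon lengths were used. Each tested subunit or complex IV gene had at least 514 counts in every library, so counting error was small beside the spread between pools. The markers of inner cell mass and trophectoderm had at least 17 counts in every library. Of the hypoblast markers, PDGFRA had at least 369 counts and GATA4 at least 4, while SOX17 had from 1 to 25 counts and was not tested. Male 5 stood apart. Its 4 trophectoderm markers summed to 24177 CPM against 3109 to 9620 in the other 10 libraries. Its genes with counts numbered 14937 against 16985 to 18550. The 3 hypoblast markers summed to 20.7 CPM in male 5 against 53.5 to 339. PDGFRA made up most of that sum, at 17.9 CPM, its lowest level. GATA4 and SOX17, at most 2.75 and 1.24 CPM in any library, were lowest in female 1. The 3 inner cell mass markers of male 5 summed to 818 CPM, the highest of the 11 libraries, mostly POU5F1 at 737 CPM. NANOG was highest in male 2 and SOX2 in female 3. In male 5, KRT8 at 20142.5 CPM and KRT18 at 3836 CPM made up most of the trophectoderm sum. CDX2 was also highest there, while GATA3 was highest in female 1. The 5 cumulus cell markers summed to 6.98 to 32.3 CPM in females and 5.38 to 29.5 CPM in males, with FSHR at 58 to 359 counts in every library, HAS2 and TNFAIP6 at 0 to 61 and 0 to 45 counts, CYP19A1 at 2 to 42 and AMH at 0 to 2. In these bulk samples fewer cells of a type and less RNA per cell cannot be told apart.

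NDUFA1 and NDUFB11, the 2 X-linked members, were lower in males, by 0.94 and 0.65 on the log2 scale. Of the 35 autosomal subunits, 33 had a higher fitted level in males. The median over the 35 was 0.33 on the log2 scale, but none of them met both the FDR and the fold change thresholds. The 7 nuclear core subunits of the matrix arm had the highest median of any role, 0.56. The 7 mitochondrially encoded core subunits had a median of 0.09 and overlapped between the sexes.

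In the test across all genes (edgeR quasi-likelihood test of males against females, called when the Benjamini-Hochberg adjusted p was under 0.1 and the fold change was over 1.5), 2 of the 38 tested members were called female-biased, against 1.5% of all tested genes, and 0 were called male-biased, against 0.414% of all tested genes. Both members called female-biased are X-linked, and 27.7% of the X-linked tested genes were called female-biased. At an unadjusted p under 0.05, 16 of the 38 were higher in males, against 6.26% of all tested genes, and 2 were lower. DESeq2 with the same library number as a term also called 0 male-biased and 2 female-biased. In that DESeq2 fit NDUFS3, NDUFS7 and NDUFS8 passed the FDR (DESeq2 adjusted p = 0.0316, 0.0136 and 0.0433). Their log2 fold changes of 0.579, 0.560 and 0.579 were just under the 0.585 that a fold change of 1.5 requires. The 0 called male-biased depended on the fit. Without the library number edgeR called 3 male-biased (NDUFS3, NDUFS7 and NDUFS8) and DESeq2 called 5 (those 3, NDUFB8 and NDUFV1), and DESeq2 with both numbers of the library name called 1 (NDUFV1). Over the 38 members, 34 had a positive log2 fold change (higher in males), with a median of 0.32, while 50.5% of all tested genes were higher in males and their median was 0.01. Without male 4 the median of the members was 0.16, and leaving out each other library in turn gave medians between 0.28 and 0.39.

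**Figure D1:**
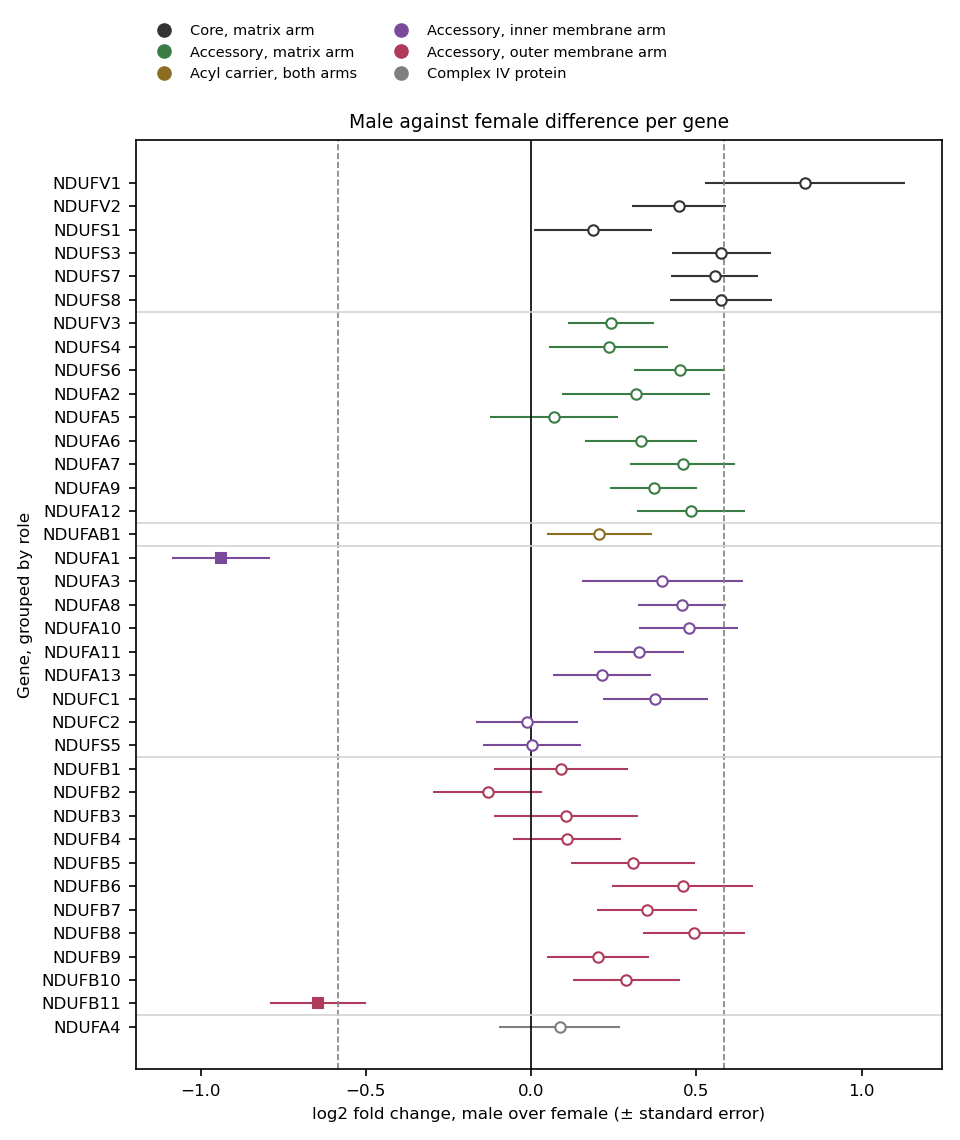
Log2 fold change of 37 of the 38 tested genes, male over female, with a standard error derived from the edgeR test on 6 female and 5 male libraries. Squares are X-linked genes, filled symbols are called genes, colours are roles, and dashed lines mark a fold change of 1.5 in either direction. NDUFA1 at -0.94 and NDUFB11 at -0.65 lie beyond the left line, while the 6 core subunits at the top lie to the right of 0, between 0.19 and 0.83.

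NDUFA1 is a small single-span subunit of the membrane arm, required for assembly of the complex, and its gene lies on chromosome X at 4220541-4223713 (ARS-UCD2.0). Its level was 275 CPM at the lowest, 291 at the median and 324 at the highest of the 6 female libraries. In males 1 to 5 it was 160.1, 157, 134, 204 and 127 CPM. Every female library lay above every male library, and the gap between the lowest female and the highest male was wider than the whole female range. The female mean was 295 ± 19.4 CPM (SD, n = 6) and the male mean 156 ± 30.3 CPM (SD, n = 5), a 1.92-fold higher level in females (log2 fold change -0.94, SE 0.15, edgeR adjusted p = 0.0102). The call held in all 11 fits that each left out 1 library, with log2 fold changes between -1.08 and -0.87.

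NDUFB11, on chromosome X at 85528832-85531089, encodes another single-span subunit, in the outer stretch of the membrane arm. Female libraries had 275 CPM at the lowest, 308 at the median and 321 at the highest. Males 1 to 5 had 183, 189, 179, 250.4 and 161 CPM. The sexes did not overlap here either, with male 4 the nearest to the females. NDUFB11 was 1.56-fold higher in females (log2 fold change -0.65, SE 0.15, edgeR adjusted p = 0.0636). This call was close to both thresholds. It held in 3 of the 11 fits without 1 library, those without female 3, female 6 or male 4. It was lost without female 1 (adjusted p = 0.102), female 2 (0.184), female 4 (0.134), female 5 (0.148), male 1 (0.130), male 2 (0.153) and male 3 (0.226), and without male 5 the fold change dropped under 1.5 (log2 fold change -0.58, adjusted p = 0.0619).

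Both X-linked subunits were read against the rest of their chromosome. Of 476 tested X-linked genes, 27.7% were called female-biased, and 29.2% had every female library above every male library. The X-linked genes had a median log2 fold change of -0.85, with quartiles of -1.36 and -0.54. NDUFA1 ranked 213 and NDUFB11 ranked 321 of 476 from the most female-biased, so both lay between the quartiles of their chromosome. The sexes were also compared within the libraries that share a number in their names (number 1, 2 or 3, which may mark collection groups). The log2 ratio of male to female mean CPM lay between -1.06 and -0.79 for NDUFA1. For NDUFB11 it was -0.68, -0.79 and -0.51, so both genes were lower in males within each number.

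The relation of these genes to the rest of the complex was also seen inside each library, where a common scaling factor cancels. NDUFA1 and NDUFB11 together made up 6.29% ± 0.25 (SD, n = 6) of the summed CPM of the 37 subunits in females, from 6.06% to 6.68%. In males they made up 2.97% ± 0.19 (SD, n = 5), with 3.10%, 3.10%, 2.94%, 3.06% and 2.65% in males 1 to 5. The ranges were far apart. Both parts of the share differed, because the X-linked sum was 553 to 645 CPM in females and 288 to 455 CPM in males, while the autosomal sum was 8267 to 9833 CPM in females and 10338 to 14402 CPM in males. With library totals in place of TMM factors the autosomal sums overlapped, at 8427 to 10273 CPM in females and 9888 to 12625 CPM in males, and the X-linked sums did not. The ratio of NDUFA1 to NDUFB11 was 0.874 to 1.13 in females and 0.751 to 0.873 in males. Male 1 and female 3 almost met on that ratio.

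**Figure D2:**
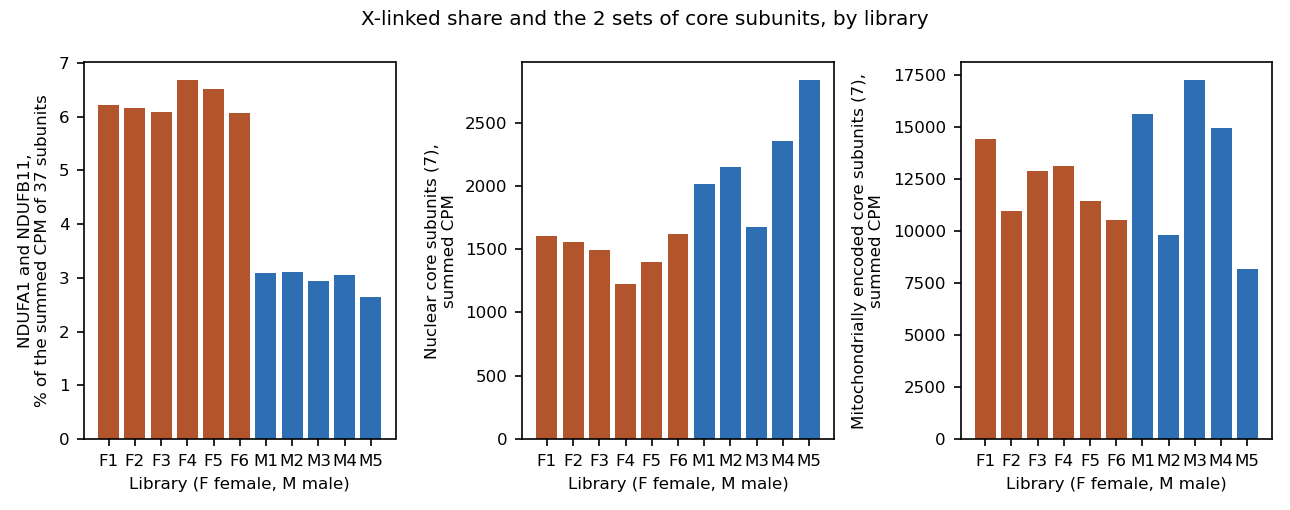
Bars for each library (F, female 1 to 6, and M, male 1 to 5) of the share of NDUFA1 and NDUFB11 in the summed CPM of 37 subunits, in percent, the summed CPM of the 7 nuclear core subunits and the summed CPM of the 7 mitochondrially encoded core subunits. The share lies between 6.06% and 6.68% in females and between 2.65% and 3.10% in males, the nuclear core sum is 1671 CPM or more in every male and at most 1620 CPM in the females (a separation lost with library totals in place of TMM factors), and the mitochondrially encoded sum overlaps between the sexes.

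The 7 nuclear core subunits carry the whole path of the electron, from the FMN that accepts it to the ubiquinone pocket. All 7 had higher fitted levels in males, 6 of them at an unadjusted p under 0.05, and none was called. Leaving out 1 library at a time gave medians between 0.46 and 0.65 and kept all 7 positive. Without male 4 and male 5 together the median was lower, 0.37, with all 7 positive. Library totals in place of TMM factors gave a median of 0.44 with all 7 positive, on a scale where the median of all tested genes was -0.10. In summed CPM the 7 genes reached 1222 to 1620 in females. In males 1 to 5 they reached 2014, 2148, 1671, 2353 and 2834. The sexes did not overlap in this sum, although male 3 was only slightly above the highest female. With library totals in place of TMM factors they did overlap, at 1333 to 1628 CPM in females and 1599 to 2734 CPM in males.

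NDUFS7 helps to form the ubiquinone pocket and binds the last iron-sulfur cluster of the chain. Its level in females was 118 CPM at the lowest, 138 at the median and 142 at the highest, and in males 1 to 5 it was 183, 226, 143, 236 and 233 CPM. All males were above all females, yet male 3 lay just above the highest female. NDUFS7 passed the FDR alone, at an edgeR adjusted p = 0.0745, but its fold change of 1.47 (log2 fold change 0.56, SE 0.13) was under the 1.5 required.

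NDUFS3, a core subunit that bridges the dehydrogenase and the ubiquinone parts, had 141 CPM at the lowest, 194 at the median and 211 at the highest in females. Males 1 to 5 had 286, 279, 218, 309 and 362 CPM, again without overlap and again with male 3 closest to the females. Its log2 fold change was 0.57 (SE 0.15, edgeR adjusted p = 0.103), and without female 3 it was called (0.64, adjusted p = 0.0598). Its gene shares 220 bases with a neighbouring protein-coding gene, and as no strand setting is given in the sources used here, reads in the shared bases cannot be assigned with certainty.

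NDUFV2, which holds an iron-sulfur cluster next to the NADH site, had 318, 428 and 457 CPM at the lowest, median and highest of the females. Males 1 to 5 had 475, 584, 495, 714 and 580.4 CPM. No male fell within the female range, though male 1 and male 3 were near it. The log2 fold change was 0.45 (SE 0.14, edgeR adjusted p = 0.189).

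NDUFS8 carries iron-sulfur clusters on the way to ubiquinone. Females had 223 CPM at the lowest, 257 at the median and 318 at the highest. Males 1 to 5 had 344, 427, 282, 509 and 534 CPM. Here male 3 fell inside the female range, while the other 4 males lay above it. The log2 fold change was 0.57 (SE 0.15, edgeR adjusted p = 0.117).

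NDUFV1, the subunit that binds NADH and FMN, had the largest fold change on the male side and varied most between pools, with a coefficient of variation of 78.0% over the 11 libraries against a median of 22.6% over the 38 tested members and 34.7% over all tested genes. Females had 78.3 CPM at the lowest, 85.1 at the median and 112 at the highest, and males 1 to 5 had 134, 124, 94.4, 115 and 430.4 CPM. The value in male 5 was 3.69-fold that of the mean of the other males. The log2 fold change was 0.83 (SE 0.30, edgeR adjusted p = 0.258), and without male 5 it was 0.38 (adjusted p = 0.185). NDUFV1 lies on chromosome 29 at 45462753-45468972 and NDUFS8 at 45559234-45563284, with 90261 bases between them.

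NDUFS1, the largest subunit of the matrix arm and the carrier of several iron-sulfur clusters, ranged from 151 to 185 CPM in females and had 258, 185, 243, 183 and 104 CPM in males 1 to 5. Male 5 had the lowest level of all 11 libraries and male 1 the highest (log2 fold change 0.19, SE 0.18, edgeR adjusted p = 0.708). Its value was 0.10 without male 1, 0.081 without male 3, 0.11 without male 4 and 0.33 without male 5. The NDUFS1 gene overlaps another protein-coding gene over 5891 of its 30149 bases.

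**Figure D3:**
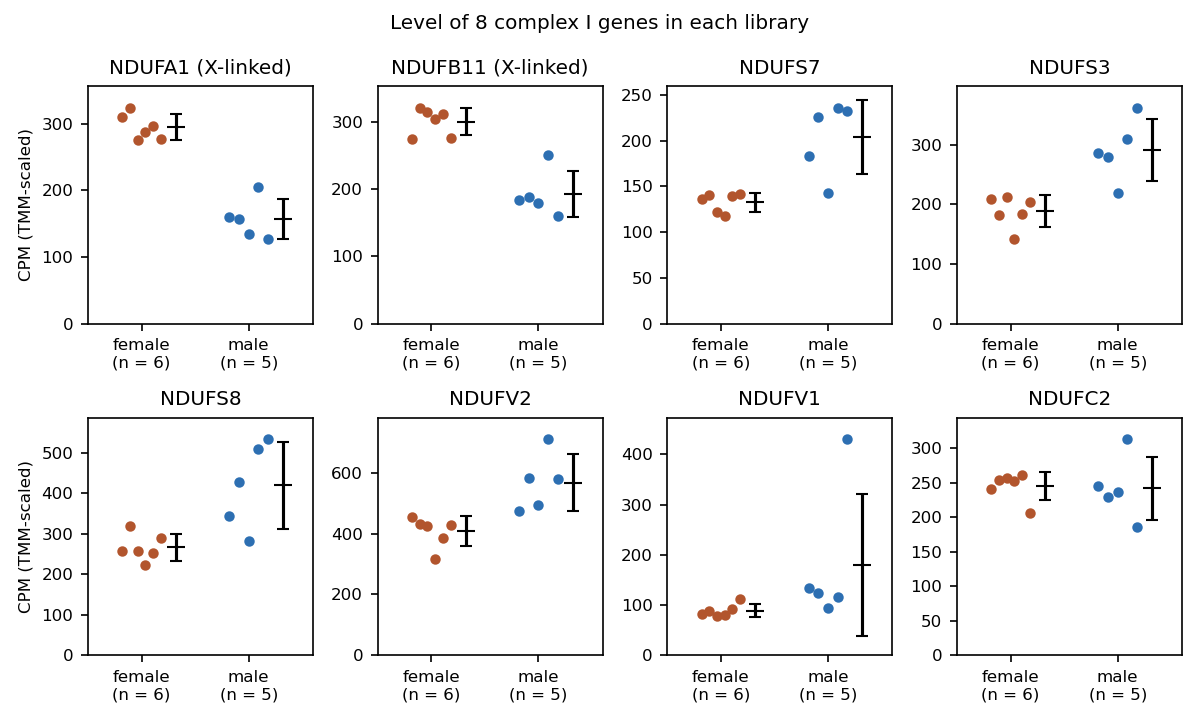
CPM of 8 complex I genes in each library, with each point a pool (6 female, 5 male) and the bar beside each group its mean ± SD. The axes start at 0. NDUFA1 and NDUFB11 separate with females above, NDUFS7, NDUFS3 and NDUFV2 separate with males above, NDUFS8 overlaps by 1 male, NDUFV1 shows 1 male at 430.4 CPM, and NDUFC2 overlaps throughout.

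The 9 accessory subunits of the matrix arm all had higher fitted levels in males, with log2 fold changes from 0.07 to 0.48 and a median of 0.33. Unadjusted p was under 0.05 for NDUFS6, NDUFA7, NDUFA9 and NDUFA12, and none was called. NDUFA9, which binds NADPH near the ubiquinone site, had 263 CPM at the lowest, 318 at the median and 336 at the highest in females and 349, 390.0, 459.6, 425 and 359 CPM in males 1 to 5. It was the only gene of this group with all males above all females (log2 fold change 0.37, SE 0.13, edgeR adjusted p = 0.245). NDUFA12, which sits at the same junction, had the largest log2 fold change of the group, 0.48 (SE 0.16, adjusted p = 0.222), with male 5 inside the female range. At the other end, NDUFA5 had 0.07 (SE 0.19), and its sign turned when male 4 was left out, to a value of -0.16. Without male 4, 8 of the 9 were higher in males and their median was 0.20. Library totals in place of TMM factors also left 8 of the 9, with a median of 0.21. On that scale the median of all tested genes was -0.10.

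NDUFAB1, the mitochondrial acyl carrier protein, is present in both arms. It ranged from 336 to 414 CPM in females and from 341 to 589 CPM in males (log2 fold change 0.21, SE 0.16, edgeR adjusted p = 0.630). This value was 0.049 without male 4, which had the 589 CPM, and 0.33 without male 3.

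Of the 9 accessory subunits in the inner stretch of the membrane arm, NDUFA1 is X-linked and 7 of the other 8 had higher fitted levels in males. Unadjusted p was under 0.05 for 4 of them. NDUFA10, a kinase-like subunit, had 302 to 418 CPM in females and 502, 485, 641, 483 and 406 CPM in males 1 to 5, with a log2 fold change of 0.48 (SE 0.15, edgeR adjusted p = 0.183). NDUFA8, a subunit of the intermembrane face, followed with 0.46 (SE 0.13, adjusted p = 0.148). The others under 0.05 were NDUFC1 at 0.38, which dropped to 0.21 without male 4, and NDUFA11 at 0.33. Over the 8 autosomal genes the median was 0.35 with all libraries and 0.19 without male 4, when 6 of the 8 were higher in males. NDUFC2 and NDUFS5 were nearest to 0.

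NDUFC2, a membrane-arm subunit, varied least over the 11 libraries, with a coefficient of variation of 13.3%. Females had 206 CPM at the lowest, 253 at the median and 261 at the highest, and males 1 to 5 had 245, 229, 237, 313 and 186 CPM. Male 4 was above and male 5 below every female, and the rest lay among them. The log2 fold change was -0.01 (SE 0.15, edgeR adjusted p = 0.986), with a sign that turned in 5 of the 11 fits without 1 library.

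Of the 11 accessory subunits in the outer stretch of the membrane arm, NDUFB11 is X-linked and 9 of the other 10 had higher fitted levels in males, with 2 at an unadjusted p under 0.05. NDUFB8 had the largest value, 0.49 (SE 0.15, edgeR adjusted p = 0.183), with 294 to 395 CPM in females and 407, 505, 356, 693 and 662 CPM in males 1 to 5. NDUFB7 had 0.35 (SE 0.15, adjusted p = 0.349), and 0.22 without male 4. The other 7 on the male side ran from 0.09 for NDUFB1 to 0.46 for NDUFB6. Over the 10 autosomal genes, the count higher in males was 9 with all libraries, 6 without male 4 and 6 with library totals in place of TMM factors. Their median was 0.25 with all libraries and 0.090 without male 4. With library totals it was 0.13, on a scale where the median of all tested genes was -0.10.

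NDUFB2 was the autosomal subunit furthest to the female side. Females had 69.8 CPM at the lowest, 73.0 at the median and 84.9 at the highest, and males 1 to 5 had 67.6, 63.4, 64.9, 94.5 and 56.4 CPM. Of the males, 4 lay below every female and male 4 lay above every female. The log2 fold change was -0.13 (SE 0.17, edgeR adjusted p = 0.788), and it was -0.30 without male 4, -0.085 without male 2 and -0.063 without male 5. Over 4998 of its 7633 bases the gene overlaps another protein-coding gene, so reads there cannot be assigned with certainty. NDUFA2, NDUFB3 and NDUFB9 share from 92 to 213 bases with a neighbouring gene.

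Over the whole group, 4 members had all males above all females (NDUFV2, NDUFS3, NDUFS7 and NDUFA9), against 1.43% of all tested genes. The 2 X-linked members, NDUFA1 and NDUFB11, had all females above all males, against 1.88% of all tested genes and 29.2% of the X-linked tested genes. With library totals in place of TMM factors, 1 member in place of 4 had all males above all females, and the 2 with females above stayed at 2.

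**Figure D4:**
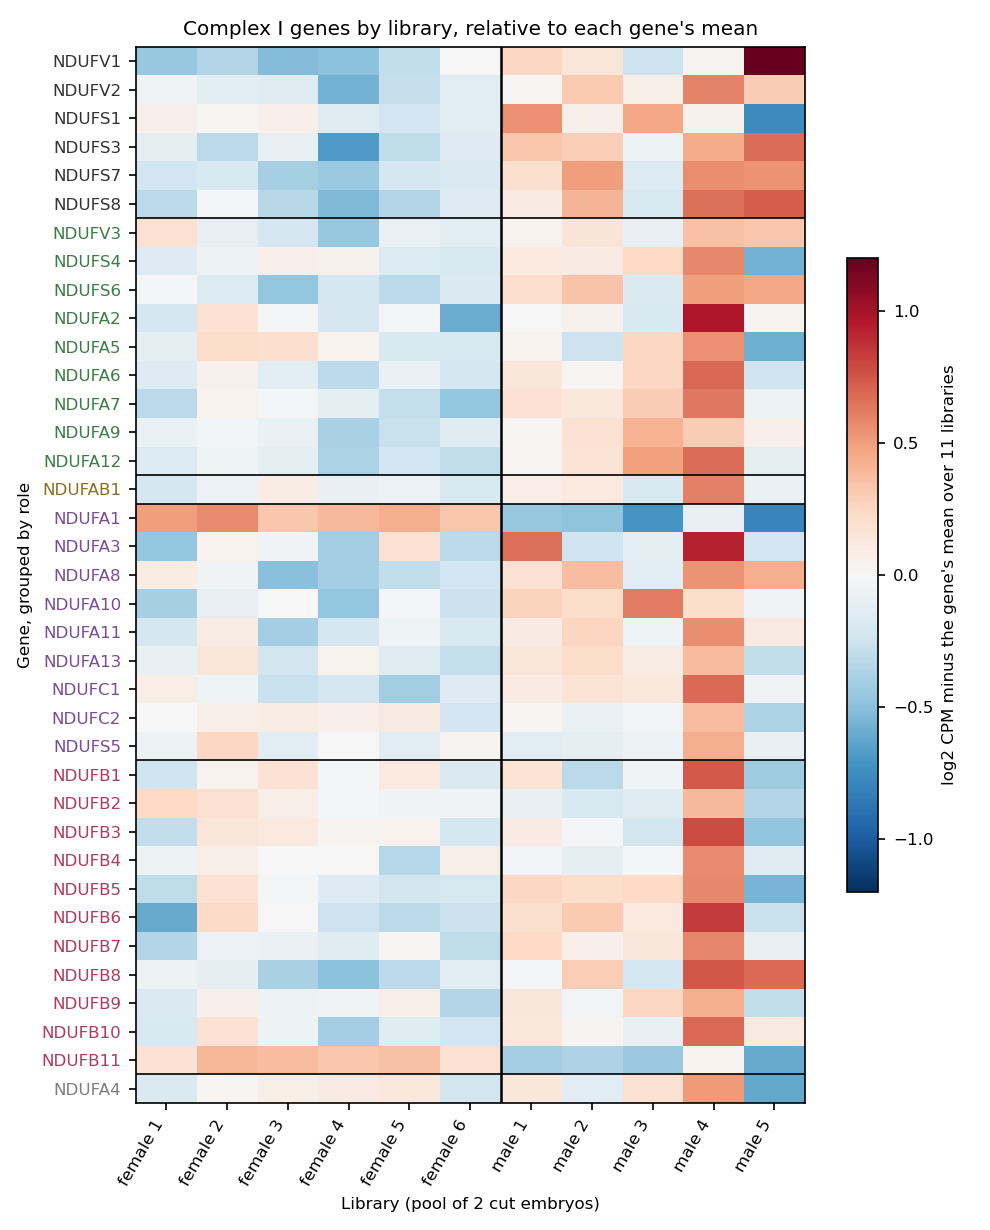
Log2 CPM of 37 of the 38 tested genes in each of the 11 libraries, minus the gene's mean over the libraries, with genes in rows grouped by role (names coloured by role, lines between roles) and libraries in columns, females left of the vertical line. Red is above and blue below the gene's mean, and the colour scale ends at 1.2 in both directions, so the value of NDUFV1 in male 5 is cut off. NDUFA1 and NDUFB11 are red in the females, and male 4 is red in nearly every autosomal row.

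The male libraries did not share 1 pattern over the complex. Male 4 had the highest level of 28 of the 35 autosomal subunits, male 5 of 4, male 3 of 2 and male 1 of 1, and no female library had the highest level of any. Summed over the 37 subunits, females had 8858 to 10479 CPM, and males 1 to 5 had 11091, 11122, 10651, 14857 and 10842 CPM. As a share of counted reads without TMM scaling, the subunits made up 0.897% to 1.09% in females and 1.02% to 1.30% in males, so the sexes overlapped on that scale. Without male 4, 28 of the 35 autosomal subunits were higher in males and their median was 0.20. Without male 5 it was 34 of 35 and 0.38, and without male 4 and male 5 together it was 27 of 35 and 0.25.

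Male 5 had its own profile. Relative to the mean of the other 4 males in log2 CPM, 25 of the 35 autosomal subunits were lower and 10 were higher in male 5. The higher ones included 6 of the 7 core subunits of the matrix arm, with NDUFV1 at 3.69-fold relative to the mean CPM of the other males. The lower ones were led by NDUFS1 at 0.480-fold, NDUFB5, a membrane-arm subunit, at 0.540-fold, and NDUFS4, an accessory subunit of the matrix arm, at 0.558-fold. This library also had the extreme marker sums and the fewest genes with counts, as given above, and their part in its complex I profile was not tested.

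The median male minus female difference in mean log2 CPM of the 35 autosomal subunits was 0.22, 0.24 and 0.42 within library numbers 1, 2 and 3. Number 2 has only 1 male library, and number 3 holds both male 4 and male 5. The difference was thus positive within each number.

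The core of the membrane arm is encoded by mitochondrial DNA. ND1, ND2, ND3, ND4, ND4L, ND5 and ND6 had log2 fold changes from 0.03 to 0.28 and edgeR called 0 of the 7, none of which reached an unadjusted p under 0.05. Their summed level was 10534 to 14417 CPM in females and 15612, 9783, 17225, 14929 and 8161 CPM in males 1 to 5. Males were both the highest and the lowest libraries. Divided by the summed CPM of the nuclear subunits, the mitochondrially encoded sum was 1.04 to 1.53 in females and 0.753 to 1.62 in males, which also overlapped. Without male 4, the number of these 7 genes higher in males was 3 in place of 7, with a median of -0.0025. Library totals also left 3, with a median of -0.015. On that scale the median of all tested genes was -0.10.

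Assembly factors build the complex in steps from separate parts. Of 19 tested, 16 had higher fitted levels in males, against 50.5% of all tested genes, and the median over the 19 was 0.25 on the log2 scale. The share of all tested genes called male-biased was 0.414%. 1 was called, NDUFAF3, which acts in assembly of the ubiquinone part, at a 1.62-fold higher level in males (0.70, SE 0.16, edgeR adjusted p = 0.0627). It had 50.1 CPM at the lowest, 67.5 at the median and 82.7 at the highest in females and 99.97 to 132 CPM in males, with no overlap. The call held in 4 of the 11 fits without 1 library and was lost without female 1 (adjusted p = 0.128), female 4 (0.125), female 5 (0.157), female 6 (0.186), male 1 (0.112), male 2 (0.108) and male 3 (0.211). NDUFAF5, a modifier of NDUFS7, also had all males above all females (0.35, SE 0.16, adjusted p = 0.395). That made 2 of the 19, against 1.43% of all tested genes.

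Complex II, succinate dehydrogenase, also feeds electrons to ubiquinone and has only nuclear subunits. All 4 of its genes had higher fitted levels in males, with a median of 0.44, and edgeR called 0 of them, 3 having an unadjusted p under 0.05. Of all tested genes, 50.5% were higher in males, 6.26% were so at an unadjusted p under 0.05, and 0.414% were called male-biased. SDHC, a membrane anchor, passed the FDR (adjusted p = 0.0820) with a fold change of 1.48, under the 1.5 required. SDHB, the iron-sulfur subunit, and SDHC had all males above all females, against 1.43% of all tested genes. The 4 genes summed to 1265 to 1615 CPM in females and to 1920 to 2240 CPM in males, without overlap. The difference between complex II and the nuclear core of complex I was not tested.

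Of the 2 genes with a complex I symbol that are not complex I subunits, only NDUFA4 was tested, and it was not called. NDUFA4, a subunit of cytochrome c oxidase, had 834, 1003 and 1057 CPM at the lowest, median and highest of the females. Males 1 to 5 had 1064, 881, 1098, 1382 and 634 CPM. The male range took in the whole female range (log2 fold change 0.09, SE 0.18, edgeR adjusted p = 0.890). The sign turned without male 4 (-0.11) and with library totals in place of TMM factors (-0.04). With library totals the median of all tested genes was -0.10. NDUFA4L2, its hypoxia-inducible relative, had 0 to 2 counts in 9 libraries, at or under the 3 counts taken as the limit for a value of 0. The exceptions were female 3 with 23 counts (1.67 CPM) and male 5 with 61 counts (2.96 CPM), so it was near 0 in both sexes and was not tested.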

How the data were processed

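RNA-seq libraries (SMART-Seq HT PLUS, which amplifies cDNA without molecular identifiers) were made from pooled expanded blastocysts (6 pools female, 5 male). Per the labels and methods, the authors used fastp 0.20.0 for trimming and STAR 2.7.10b for alignment to ARS-UCD2.0, and deposited raw counts per gene from featureCounts, whose strand setting is not given in the sources used here. Groups and replicate numbers came from the sample labels. Genes were filtered with filterByExpr by sex, normalized with TMM factors and tested with the quasi-likelihood test of edgeR 4.0.16 in R 4.3.3, male against female, with the library number (first number of the library's name) as a term, because the study used collection week and the labels give none. A gene was called at an FDR under 0.1 and a fold change over 1.5. Each standard error (SE) was derived from that test, as the absolute log2 fold change divided by the square root of its F statistic. DESeq2 1.42.0, other scalings, filters and thresholds, and fits without each library were tried. Values are given in full for called and X-linked members, members whose sexes did not overlap, the 3 smallest p in each direction, the highest and lowest coefficient of variation, and the 2 complex IV proteins, and the text adds others by role. The members and lists were chosen with earlier results of these data known. Coordinates are RefSeq gene spans of ARS-UCD2.0. Sequences of members were not used here. Values of 1 member are not reported singly here.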

Additional observations from a re-analysis of the deposited data

Results flagged for a closer look

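In each sex, the highest and the lowest library were compared with the spread of the rest for each member and for several sums and ratios. This gave 90 groups of values and 12 outlying values. Chance alone gives about 1 in 20 for independent groups. These groups share libraries, and the sums and ratios reuse the values of members, so the 12 cannot be judged against that rate. Male 4 was far above the other males for NDUFA2 (387 CPM), NDUFC1 (798 CPM), NDUFS5 (279 CPM), NDUFB4 (390.4 CPM) and NDUFB10 (669.9 CPM), and for the summed level of the 37 subunits (14857 CPM). Male 5 was far above the other males for NDUFV1 (430.4 CPM), for the ratio of NDUFV1 to NDUFV2 (0.742) and for NDUFA4L2 (2.96 CPM). Among females, female 3 was far above the others for NDUFA4L2 (1.67 CPM), female 6 was far below them for NDUFC2 (206 CPM) and female 5 was far below them for NDUFB4 (207 CPM).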

How the results depend on the processing

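The count of sex-biased genes over the whole table was 245. It was 655 with DESeq2 and the library number, 739 with DESeq2 and no number, 651 with DESeq2 and both numbers of the library's name, 743 with every gene of at least 1 count, 62 when a fold change of 1.5 was itself tested (glmTreat), 125 at an FDR under 0.05, 116 without male 4 and male 5 together, and 95 to 364 without 1 library. The 0 members called male-biased became 3 with no replicate block (NDUFS3, NDUFS7 and NDUFS8), 5 with DESeq2 and no replicate block (those 3, NDUFB8 and NDUFV1), 1 with DESeq2 and both numbers (NDUFV1), 1 with every gene of at least 1 count (NDUFV1), and 0 to 1 without 1 library (NDUFS3, without female 3). The 2 called female-biased became 0 with glmTreat (NDUFA1 adjusted p = 0.366), 1 at an FDR under 0.05 and 1 to 2 without 1 library, while NDUFA1 was called under every alternative but glmTreat. The cause of these changes was not tested. With library totals, 1 member in place of 4 had all males above all females. The sign turned for NDUFA4 with library totals (-0.035), on a scale where the median of all tested genes was -0.10. Without 1 library NDUFA4 ranged from -0.11 to 0.22 and NDUFC2 from -0.16 to 0.072. The members' median ranged from 0.16 to 0.39 over all settings and never turned. With no replicate block the whole table gave 326 genes, and with both numbers as a replicate block in edgeR 187. Same-named female and male libraries had correlations of their deviations of -0.11, 0.24, 0.35, 0.04 and 0.28. Female and male libraries sharing only the first number, the term of the main fit, had -0.04, -0.04, 0.13, -0.07 and -0.04. The numbers were thus not shown to pair the libraries. Library totals and leaving out male 4 and male 5 together were chosen after seeing the data. With 6 and 5 pools, log2 standard errors of 0.13 to 0.30 limit the precision. They reflect the spread between pools, in which differences between embryos and amplification cannot be told apart.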
